A study of Mus musculus with 48 samples.

Results

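The 48 mice of the study, 12 in each of 4 groups, were ranked within their group by the level of *Dnajb1* in the SN, the 6 highest were taken as high *Dnajb1* mice and the 6 lowest as low *Dnajb1* mice, and every other gene was compared between the 24 high and the 24 low mice. All 48 mice sequenced entered one set or the other. The groups were male C57BL/6J mice injected on one side of the brain with α-syn monomer or with α-syn preformed fibrils (PFF), and breathing 21% or 11% O2. The injection was into the striatum at 121 days of age, and the SN was taken 12 weeks later by the labels, which the listed dates give as 90 to 98 days, in 3 harvest batches by date. The sources differ on the exposure, with 12 weeks at 11% O2 in the methods and 6 weeks at 21% followed by 6 weeks at 11% in the deposited design. All mice carried injected α-syn, so no group was untouched, and monomer mice are the controls for PFF. Whole SN was sequenced, not sorted neurons, so a smaller number of cells of one type and less RNA in each of them cannot be told apart.

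*Dnajb1* encodes an HSP40 cochaperone, a protein that hands misfolded clients to HSP70 and stimulates its ATPase. When proteins unfold, heat shock factor HSF1 is released from chaperones, binds short repeats of GAA and TTC in promoters, and switches on *Dnajb1*, the HSP70 genes *Hspa1a* and *Hspa1b*, and other chaperones within minutes. *Cirbp* and *Rbm3* encode RNA-binding proteins that are known for the opposite behaviour with temperature, being induced by mild cooling and repressed by warming. HSP40 and HSP70 proteins are also known to act on aggregated α-syn.

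The promoters of *Dnajb1* and of the 2 inducible HSP70 genes are shown because the heat shock element is what these 3 genes are known to share. Each window is 300 bases of GRCm38.p6 from RefSeq, 250 before the transcription start and 50 after it, on the gene's own strand, and capitals mark matches to GAANNTTC or TTCNNGAA, each of which reads the same on both strands.

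*Dnajb1*, chr8:83607925-83608224, plus strand: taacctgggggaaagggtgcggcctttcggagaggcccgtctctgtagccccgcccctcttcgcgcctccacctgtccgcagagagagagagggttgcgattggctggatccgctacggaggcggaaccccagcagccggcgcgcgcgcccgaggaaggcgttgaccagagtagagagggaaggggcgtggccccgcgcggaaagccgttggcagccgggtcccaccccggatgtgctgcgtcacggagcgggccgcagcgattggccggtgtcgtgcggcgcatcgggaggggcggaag

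*Hspa1a*, chr17:34972107-34972406, minus strand: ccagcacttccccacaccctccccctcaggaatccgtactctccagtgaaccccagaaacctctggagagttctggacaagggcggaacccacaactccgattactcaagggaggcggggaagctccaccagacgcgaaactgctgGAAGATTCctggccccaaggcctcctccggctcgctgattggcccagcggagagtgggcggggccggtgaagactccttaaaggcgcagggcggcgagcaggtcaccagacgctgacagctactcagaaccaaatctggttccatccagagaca

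*Hspa1b*, chr17:34959189-34959488, minus strand: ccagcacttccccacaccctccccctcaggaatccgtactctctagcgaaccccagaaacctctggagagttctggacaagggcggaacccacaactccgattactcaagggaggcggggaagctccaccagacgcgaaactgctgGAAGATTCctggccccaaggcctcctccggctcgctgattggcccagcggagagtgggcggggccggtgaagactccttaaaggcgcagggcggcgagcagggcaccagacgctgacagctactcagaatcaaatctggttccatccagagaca

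The *Hspa1a* and *Hspa1b* windows differed at 4 of 300 bases and each held 1 match to GAANNTTC, beginning 104 bases before the start. The *Dnajb1* window, the outer of 2 listed for the gene, held neither string, which says only that these letters are not in it. Among all 32851 promoter windows of the same length, 7.86% held GAANNTTC, 8.52% held TTCNNGAA and 15.1% held either, so a match is common. *Hspa1a* and *Hspa1b* are also near-identical in their transcripts, so that the authors' counting, which kept the primary alignment of a read with several alignments, could have divided reads between them arbitrarily. *Hspa1a* further overlaps *Gm20481* on the other strand, and the counting used no strand.

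The split itself was selected on *Dnajb1* TPM, a read count scaled to gene length and library size, and its size is therefore a description with no test. Monomer mice at 21% O2 had the highest levels, with high mice at 131, 142 and 187.8 TPM (lowest, median and highest of 6) and low mice at 110, 120 and 128. PFF mice at 21% O2 had 77.5, 95.8 and 106 TPM in the high mice and 67.9, 72.2 and 77.3 in the low mice. At 11% O2, high monomer mice had 76.1, 77.5 and 89.5 TPM and low ones 65.1, 67.4 and 74.9. High PFF mice at 11% O2 had 74.5, 77.6 and 83.4 TPM and low ones 52.8, 70.7 and 74.0. The contrast was thus small, the mean of the high mice being 1.26 times that of the low mice in monomer and 1.28 times in PFF mice at 21% O2, but 1.17 and 1.14 times at 11% O2. The lowest high mouse exceeded the highest low mouse by 2.54% in monomer and 0.274% in PFF mice at 21% O2, and by 1.56% and 0.626% at 11% O2, so mice next to the boundary were close to interchangeable. Every monomer mouse at 21% O2, low ones included, had more *Dnajb1* than any mouse of the other 3 groups.

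**Figure D1:**
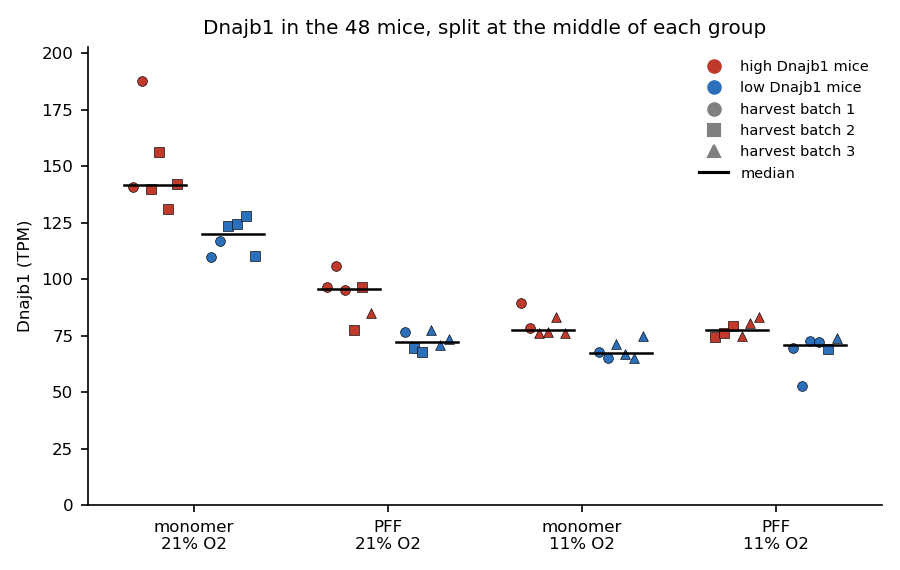
*Dnajb1* level in TPM (vertical axis, from 0) for each of the 48 mice by group (horizontal axis), with high mice in red, low mice in blue, the marker shape giving the harvest batch and black lines the medians of 6. High and low mice meet closely in each group, and the monomer mice at 21% O2, from 110 to 187.8 TPM, lie above all other mice.

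Between groups, which the ranking within a group did not use, *Dnajb1* was 0.70 lower on the log2 scale in PFF than in monomer mice at 21% O2 (SE 0.075, adjusted p = 1.79e-08, edgeR) and 0.88 lower in monomer mice at 11% than at 21% O2 (SE 0.087, adjusted p = 2.50e-09). PFF and monomer mice at 11% O2 differed by 0.03 (SE 0.076, adjusted p = 0.970). The first and the second of these comparisons share the monomer mice at 21% O2. Those mice came only from batches 1 and 2, and monomer mice at 11% O2 only from batches 1 and 3. The second comparison therefore has only batch 1 in common, and its other mice are linked through PFF mice of their batches. The differences between high and low mice described next lie within groups, and they hold no information on injection or O2.

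Harvest batch was nearly even over the split as a whole, with 7, 9 and 8 high and 9, 7 and 8 low mice in batches 1, 2 and 3, but not within PFF mice. All 4 PFF mice of batch 1 at 11% O2 were low, and 3 of the 4 batch 1 PFF mice at 21% O2 were high. Counts on genes were between 13596980 and 17005846 in high mice and between 3134594 and 17120921 in low mice, and the library with the fewest counts, replicate 2 of the PFF mice at 11% O2, also had the lowest *Dnajb1* of all, 52.8 TPM. Mitochondrial genes took 3.06% to 4.28% of counts in high mice and 2.66% to 6.99% in low mice. Of the 6 mice that the authors excluded by principal components, 4 were low and 2 high. *Th*, the tyrosine hydroxylase gene of dopaminergic neurons, was present in all 48 libraries, from 62.6 to 1153 TPM.

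Few genes differed between high and low mice. With group and batch in the model, 18157 genes were tested with edgeR's quasi-likelihood test, and 2 of them, or 0.011%, passed both thresholds for a call, a p below 0.05 after Benjamini–Hochberg adjustment and a log2 difference beyond 0.25 either way. *Hspa1a* rose with *Dnajb1*, and *4632427E13Rik*, a long noncoding RNA, fell. By the adjusted p alone 7 genes passed (0.0386% of those tested), 2 higher and 5 lower in high mice. Because the split was made from the level of one gene, each p says only that a gene co-varied with *Dnajb1* over these mice. In simulated data with the means and library sizes of these mice, 16 of 50 genes given a log2 change of 0.25 were called. By the adjusted p alone 26 of these 50 passed, since a call also needs an estimate beyond 0.25. Of genes given a change of 0.5, 40 of 49 were called, and of unchanged genes 1 of 17888. Smaller differences could thus often have been missed.

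*Hspa1a* (chr17:34969190-34972156, minus strand, GRCm38) encodes an inducible HSP70, the chaperone that DNAJB1 serves. Over the 4 groups it was 0.57 higher in high mice on the log2 scale (SE 0.12, n = 24 and 24, adjusted p = 0.0475). The call was lost in 39 of the 48 fits that left out 1 mouse, with the split made within group and batch (adjusted p = 0.261), without the batch term (adjusted p = 0.130), with the replicate block (adjusted p = 0.113) and in the 42 mice that the authors kept (adjusted p = 0.112), always at a positive difference. In monomer mice at 21% O2 it stood at 42.3, 73.9 and 157 TPM in the high mice and at 33.8, 45.9 and 60.1 in the low mice. In PFF mice at 21% O2 it stood at 14.8, 26.3 and 51.7 TPM against 10.9, 13.4 and 18.2. In both groups at 21% O2 high and low mice overlapped, but 4 high monomer mice and 5 high PFF mice lay above every low mouse of their group. These counts, like those given below for other genes, take no account of batch. Of the PFF mice at 21% O2, 3 high mice but 1 low mouse came from batch 1. At 11% O2 the sets were closer, at 11.2, 12.0 and 16.97 against 7.23, 10.1 and 14.8 TPM in monomer mice and at 11.0, 12.9 and 14.1 against 8.79, 12.4 and 17.1 in PFF mice. The log2 difference was 0.78 in monomer and 0.93 in PFF mice at 21% O2, and 0.30 and 0.18 at 11% O2, and the test of a difference among these 4 values gave p = 0.107 unadjusted. It was positive in each batch alone, at 0.97, 0.36 and 0.28 in batches 1, 2 and 3.

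*Hspa1b* (chr17:34956436-34959238, minus strand), the neighbouring copy, had the larger difference, 0.70, with a larger error (SE 0.18), and was not called (adjusted p = 0.198). In monomer mice at 21% O2 it stood at 68.5, 138 and 256 TPM in the high mice and at 50.9, 84.9 and 109 in the low mice. In PFF mice at 21% O2 the high mice stood at 12.8, 36.1 and 95.5 TPM and the low mice at 8.35, 10.2 and 24.3, with 5 of 6 high mice above every low mouse. At 11% O2, 2 of 6 high monomer mice and none of 6 high PFF mice lay above every low mouse. Monomer mice there had 8.61, 9.25 and 13.3 TPM in the high mice against 7.41, 8.79 and 11.3 in the low mice. PFF mice there had 7.57, 8.76 and 11.4 TPM against 6.66, 10.03 and 20.8. The log2 differences of the 4 groups, 0.79, 1.66, 0.17 and -0.13 in the same order, differed among themselves at p = 0.00289 before adjustment and at 1.00 after it, so a difference between groups was not established. Of the 24 high mice, 16 were among the 6 highest mice of their group for *Hspa1a* and 16 for *Hspa1b*. In PFF mice at 11% O2 the number was 3 of 6 for each gene, which an unrelated gene would give on average. For *Cirbp* and for *Rbm3* it was 9 of 24.

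**Figure D2:**
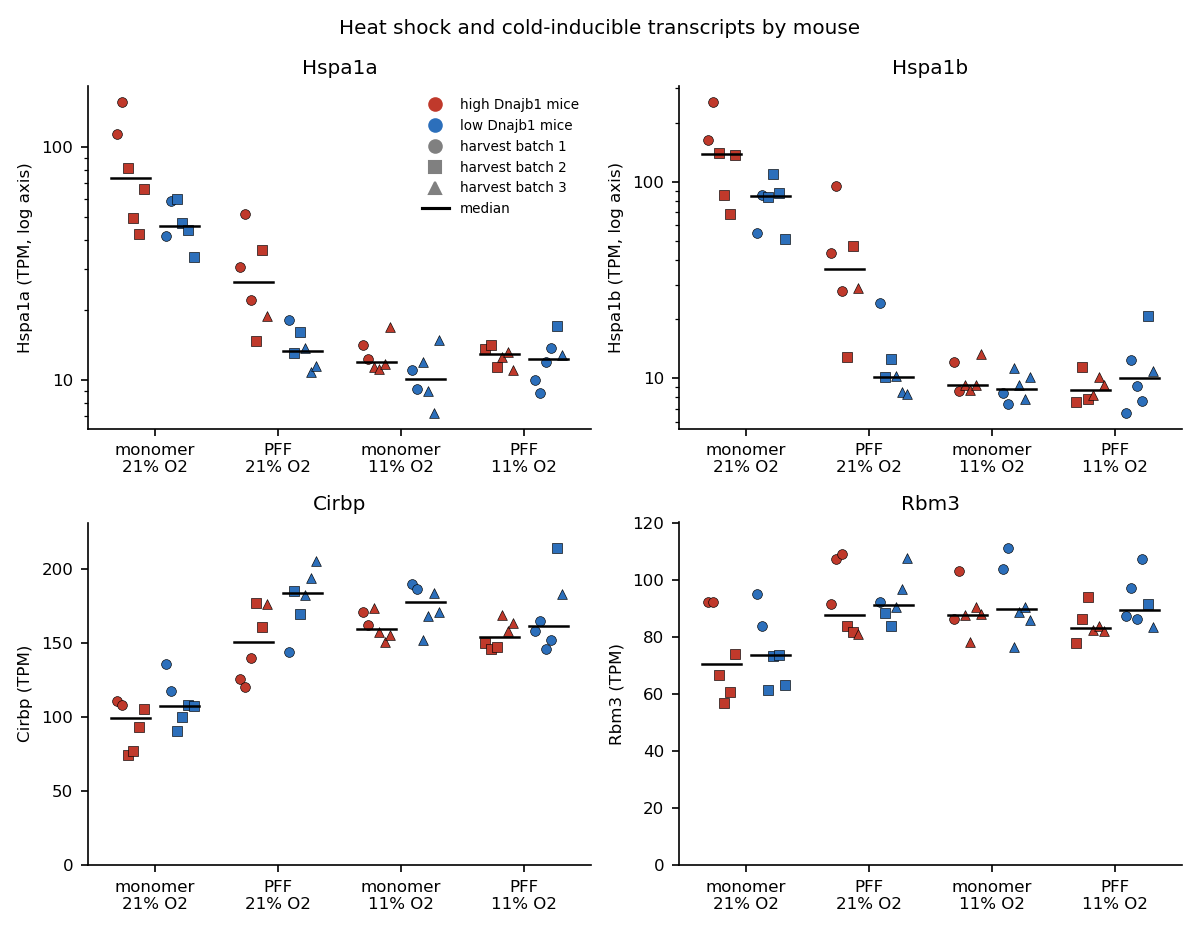
*Hspa1a* and *Hspa1b* (log axis) and *Cirbp* and *Rbm3* (linear axis from 0) in TPM for each of the 48 mice by group, with high *Dnajb1* mice in red, low mice in blue, marker shapes for the batch and black lines for medians of 6. The red *Hspa1a* and *Hspa1b* points reach above the blue ones at 21% O2 and mix with them at 11% O2, where *Hspa1b* stays between 6.66 and 20.8 TPM.

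The 2 cold-inducible genes were not called. *Cirbp* (chr10:80165985-80172786, plus strand) was 0.19 lower in high mice (SE 0.051, adjusted p = 0.232), with a negative difference in each of the 4 groups and each of the 3 batches. Its medians in high and low mice were 99.5 and 108 TPM in monomer and 150.1 and 183.5 TPM in PFF mice at 21% O2, where 4 of 6 low PFF mice lay above every high one. At 11% O2 they were 159.4 and 177.3 TPM in monomer and 154.1 and 161.2 TPM in PFF mice. *Rbm3* (chrX:8138975-8145880, minus strand) differed by -0.04 (SE 0.038, adjusted p = 0.723). Its medians were 70.5 and 73.6 TPM in high and low monomer mice and 87.9 and 91.4 TPM in PFF mice at 21% O2, and 87.9 and 89.8 TPM in monomer and 83.2 and 89.5 TPM in PFF mice at 11% O2. *Rbm3* lies over the antisense gene *Rbm3os*, whose reads could not be told apart from its own. Across groups, by contrast, *Cirbp* was 0.66 higher in PFF than in monomer mice at 21% O2 (SE 0.085, adjusted p = 1.20e-06), several times its difference between high and low mice, and *Rbm3* was 0.31 higher (SE 0.057, adjusted p = 0.000487). Thus of the 3 genes named beside *Dnajb1* as markers of this split, *Hspa1b*, *Cirbp* and *Rbm3*, none passed the test.

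*4632427E13Rik* (chr7:92734166-92741468, minus strand) is annotated as a noncoding RNA transcribed away from a neighbouring gene out of a shared promoter, and overlaps no other gene. It was 0.33 lower in high mice (SE 0.067, adjusted p = 0.0475). This call was lost in 36 of the 48 fits that left out 1 mouse and, at adjusted p of 0.173, 0.0666, 0.139 and 0.112, in the same 4 other settings. In monomer mice at 21% O2 it stood at 1.31, 1.87 and 2.58 TPM in the high mice and at 2.31, 2.53 and 2.86 in the low mice. In PFF mice at 21% O2 it stood at 2.10, 2.75 and 3.09 against 2.99, 3.10 and 3.23 TPM, and in both groups 5 of 6 high mice were below every low mouse. At 11% O2 monomer mice had 2.25, 2.57 and 3.02 against 2.31, 3.14 and 3.89 TPM, and PFF mice 1.96, 2.49 and 3.00 against 2.73, 3.14 and 5.03, again with 5 of 6 high PFF mice below every low one. The log2 difference was -0.45 and -0.25 at 21% and -0.25 and -0.38 at 11% in monomer and PFF mice respectively, and the test among the 4 groups gave p = 0.660.

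The other 5 genes that passed the adjusted p had differences under 0.25 and were chosen for mention after their values were seen. *Slc35b3*, which encodes a Golgi transporter of the sulfate donor PAPS, had the smallest p and was 0.23 lower in high mice (SE 0.042, adjusted p = 0.0261). In PFF mice at 21% O2 its high and low mice did not overlap, at 9.31 to 10.39 TPM in high and 10.41 to 12.9 TPM in low mice. They did overlap in each of the other groups. *Fkbp4* also did not overlap in PFF mice at 21% O2. The share of all genes without overlap was not computed, so this is a description. *Cwc22*, a spliceosome factor needed to deposit the exon junction complex, was 0.16 lower (SE 0.032, adjusted p = 0.0475), *Ccdc59* 0.14 lower (SE 0.028) and *Nemp2*, a protein of the inner nuclear membrane, 0.22 lower (SE 0.046) at the same adjusted p. *Rbm15*, an RNA-binding protein that recruits the m6A methyltransferase, was 0.20 higher (SE 0.040, adjusted p = 0.0475). All 7 genes had the same sign in the 4 groups and in the 3 batches, as did 1020 of the 1863 genes with an unadjusted p under 0.05. *Slc35b3*, *Ccdc59* and *Cwc22* overlap other annotated genes.

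**Figure D3:**
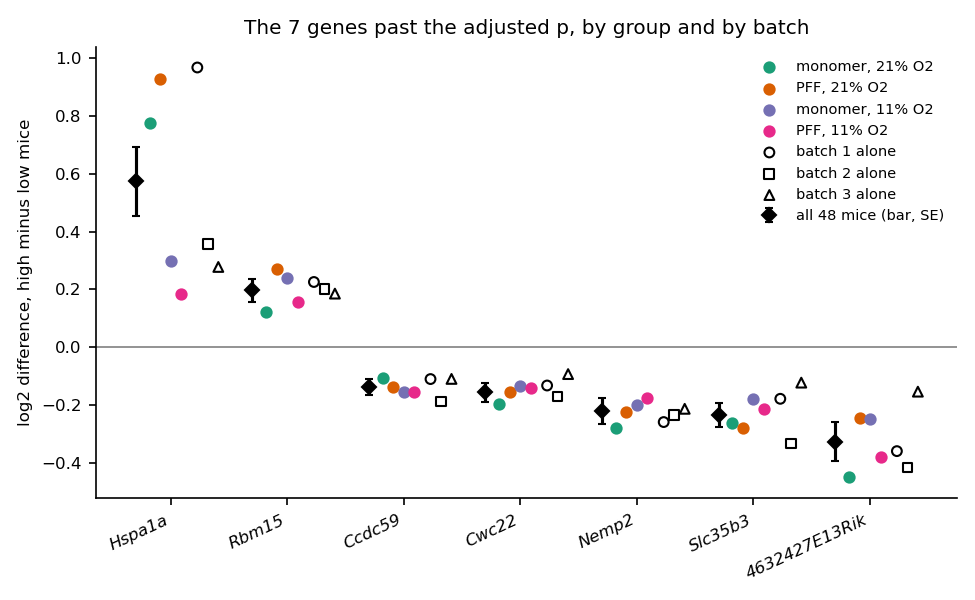
Log2 difference between high and low *Dnajb1* mice (vertical axis) for the 7 genes past the adjusted p, with all 48 mice as black diamonds with SE bars, each of the 4 groups as coloured points and each batch alone as open symbols. For each gene the points lie on one side of 0, and those of *Hspa1a* spread most, from 0.18 in PFF mice at 11% O2 to 0.97 in batch 1.

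Set beside the comparisons of whole groups, in which the same counts were fitted without the split, the 7 genes had the opposite sign in PFF against monomer mice at 21% O2, where *Dnajb1* was lower, and 6 of the 7 had an adjusted p under 0.05 there, as did 5.59% of the 18157 genes. *Hspa1a* was 1.61 lower (SE 0.21, adjusted p = 1.20e-06) and *Nemp2* 0.46 higher (SE 0.083, adjusted p = 0.000367) in PFF mice. *4632427E13Rik* was 0.37 higher and did not pass (adjusted p = 0.0655). In monomer mice at 11% against 21% O2, where *Dnajb1* was again lower, the 7 signs were also opposite and 5 passed, beside 7.39% of all genes. None of the 7 passed between PFF and monomer mice at 11% O2, where 0% of all genes did, or between PFF mice at 11% and 21% O2, where 0.876% did. In the last of these *Dnajb1* was 0.14 lower. There 5 of the 7 had the same sign as between high and low mice, and 2 the opposite. Between PFF and monomer mice at 11% O2, with *Dnajb1* 0.03 higher, 6 had the same sign and 1 the opposite. The share of all genes with either sign was not counted. The first and second comparisons share their control mice, and the monomer mice of the second have only batch 1 in common.

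Heat shock genes beyond the HSP70 pair had small differences, and none of these genes was called. The 4 heat shock lists held 28 genes, all tested, *Hspa1a* and *Hspa1b* included. Of the other 26 genes, 21 had a positive difference, beside 46.4% of all genes, and 8 had a positive difference with an unadjusted p under 0.05, beside 4.3% of all genes (780 of 18157). None of the 26 had a negative difference at that level, which 5.96% of all genes had (1083 genes). Their median difference was 0.04 and that of all genes -0.0055. With the level of *Dnajb1* as a continuous term in place of the split, 20 of the 26 were positive, beside 48.4% of all genes. In that fit 13 of the 26 were higher at an unadjusted p under 0.05, beside 7.15% of all genes, and none was lower. There 2 passed the adjusted p, both higher, beside 83 higher among all 18157 genes, and none was called. In the HSP70 and HSP110 list, 6 of 6 were positive between high and low mice, the pair among them. *Hsph1*, an HSP110 that exchanges the nucleotide of HSP70, was 0.13 higher (SE 0.044, adjusted p = 0.411). Of 8 genes for HSP90 and its cochaperones, 7 were positive and 4 had an unadjusted p under 0.05. These were *Hsp90ab1*, a constitutive HSP90, at 0.07 (SE 0.035), *Fkbp4* at 0.07 (SE 0.022), *Stip1*, which links HSP70 to HSP90, at 0.07 (SE 0.025) and *Ahsa1*, the activator of the HSP90 ATPase, at 0.06 (SE 0.026). Of 9 other DNAJ cochaperones, 7 were positive, with *Dnajb2* at 0.09 (SE 0.032) and *Dnaja4* at 0.07 (SE 0.035) past an unadjusted p of 0.05. Of the 5 small heat shock proteins and BAG3, 3 were positive, and *Hspb6* at 0.14 (SE 0.061), which overlaps other genes, passed at that level. The 10 chaperonin genes, which fold newly made proteins, had a median of -0.0017, and 4 were positive. These lists were compiled with earlier results of these data known, so their counts are a description.

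**Figure D4:**
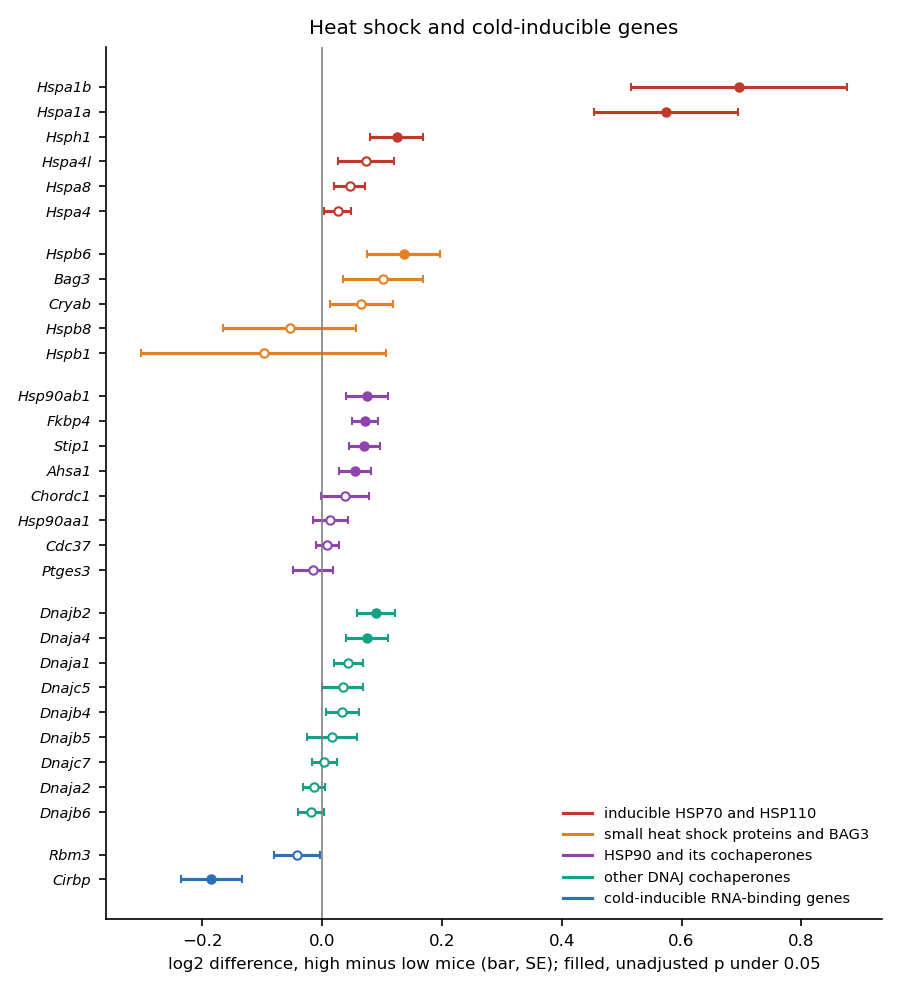
Log2 difference between high and low *Dnajb1* mice (horizontal axis, bars SE) for the 28 genes of the 4 heat shock lists and the 2 cold-inducible genes, filled where the unadjusted p was under 0.05. *Hspa1a* at 0.57 and *Hspa1b* at 0.70 stand far to the right of the other heat shock genes, which lie between -0.10 and 0.14.

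No gene of the other pathway lists was called. Of 11 SR splicing factors, 9 were negative with a median of -0.03, beside 9725 of all 18157 genes. Of the 11, 4 were lower at an unadjusted p under 0.05 (36.4% of the list, beside 5.96% of all genes), among them *Srsf5* at -0.10 (SE 0.032, adjusted p = 0.336). With *Dnajb1* as a continuous term 1 of the 11 passed the adjusted p, lower and without a call. *Dedd2*, *Ccdc117* and *Lrrc29* made up a list compiled after earlier results of these data. The first had a difference of 0.14 (SE 0.032, adjusted p = 0.0705) and the second of 0.14 (SE 0.044, adjusted p = 0.327), whereas *Lrrc29* went the other way, at -0.14 (SE 0.065, adjusted p = 0.474). With *Dnajb1* as a continuous term 2 of the 3 passed the adjusted p, both higher and without a call. All 3, like *Srsf5*, were chosen for mention after their values were seen. Of 18 ER chaperones 14 were positive with a median of 0.05, which is as high as that of the heat shock lists. Of 15 immediate early genes, which neurons switch on within minutes of activity, 11 were positive with a median of 0.05, and 1 was higher at an unadjusted p under 0.05. These 2 lists stood higher in the smaller sets of mice given next, but the immediate early genes did not with a continuous term. Without the library with the fewest counts the immediate early genes had a median of 0.15, with 12 of 15 positive. In the 42 mice that the authors kept they had a median of 0.17, with 14 of 15 positive and 6 higher at an unadjusted p under 0.05 (40% of the list, beside 2.77% of all genes), and 7 of 18 ER chaperones were higher at that level with a median of 0.07. With the level of *Dnajb1* as a continuous term in place of the split, the immediate early genes had a median of 0.0045. There 10 of 15 were positive, with 1 higher and 1 lower at an unadjusted p under 0.05. The ER chaperones had a median of 0.05 in that fit, with 17 of 18 positive. No gene of either list was called in these fits. Of 20 HIF targets 11 were positive with a median of 0.0055, and of 31 proteasome subunits 18 were positive with a median of 0.0031. Of 13 genes of the mitochondrial genome 12 were negative with a median of -0.08, and 1 was lower at an unadjusted p under 0.05. With the continuous term all 13 were negative and 12 were lower at that level, beside 9.31% of all genes. There 4 of the 13 passed the adjusted p without a call. The median of these 13 was -0.03 without the library with the fewest counts and -0.04 in the 42 mice. Of 36 complex I subunits 22 were negative with a median of -0.01. With the continuous term 30 of the 36 were negative and 11 were lower at an unadjusted p under 0.05, whereas in the 42 mice 13 were negative. Clock repressors and D-box output genes, which can track the time of harvest within the day, had a median of -0.04. Between high and low mice 3 of these 13 were lower at an unadjusted p under 0.05, beside 5.96% of all genes.

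Markers of several other cell types had lower values in high mice, and none of them was called. All 5 red cell genes were lower in high mice, each at an unadjusted p under 0.05, with a median of -0.72. Of all genes 5.96% were lower at that level. The 6 leptomeningeal fibroblast markers were all negative with a median of -0.54, the 6 forebrain excitatory neuron markers with a median of -0.33 and the 6 choroid plexus markers with a median of -0.24. All 8 endothelial markers were negative with a median of -0.08, as were 6 of 7 pericyte and smooth muscle markers with a median of -0.18. The summed TPM of red cell genes ranged from 551 to 5344 with a median of 1336 in high mice, and from 695 to 29686 with a median of 1422 in low mice, so the medians were close and the low mice held the highest values. For the leptomeningeal markers the medians were 47.6 and 46.5 TPM and the highest values 212.4 and 654.5 TPM in high and low mice, and for the forebrain markers 37.1 and 39.8 TPM with highest values of 70.9 and 238. Without the library with the fewest counts the red cell median was -0.23 and the forebrain median 0.03, but the leptomeningeal, choroid plexus, pericyte and endothelial medians were -0.43, -0.25, -0.21 and -0.10. In the 42 mice that the authors kept, the medians of red cell, leptomeningeal and forebrain lists were -0.03, 0.01 and -0.02, and those of pericyte and endothelial lists 0.0071 and -0.03. The choroid plexus median stayed at -0.18 there, with 6 of 6 negative, and that of the 4 heat shock lists was 0.05, as in all 48 mice. No choroid plexus marker had an unadjusted p under 0.05 in either fit. With *Dnajb1* as a continuous term the choroid plexus median was -0.04, with 3 of 6 positive. The endothelial and pericyte medians were -0.0042 and -0.03 in that fit, and the red cell, leptomeningeal and forebrain medians -0.89, -0.36 and -0.45. *Hspa1a* was 0.57 higher without the library with the fewest counts and 0.62 higher in the 42 mice, and *4632427E13Rik* was 0.30 and 0.31 lower. The part of red cell, vascular, meningeal, choroid plexus and forebrain RNA in the differences of other genes was not tested.

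**Figure D5:**
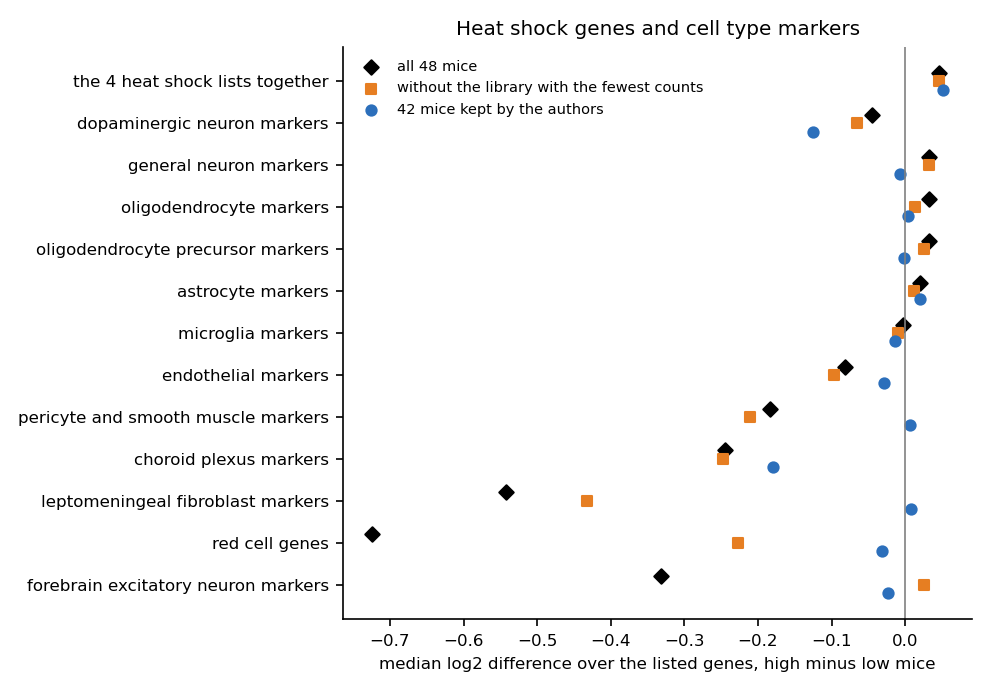
Median log2 difference between high and low *Dnajb1* mice (horizontal axis) over the 4 heat shock lists together and over each cell type marker list, for all 48 mice (black), without the library with the fewest counts (orange) and for the 42 mice kept by the authors (blue). The red cell, leptomeningeal and forebrain medians move from -0.72, -0.54 and -0.33 in 48 mice to -0.03, 0.01 and -0.02 in 42, the choroid plexus median from -0.24 to -0.18, and the heat shock median stays at 0.05.

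No marker of dopaminergic neurons or oligodendrocytes passed the test. *Th* differed by -0.06 (SE 0.20, adjusted p = 0.951), a sign that turned in 10 of 25 other settings and in 2 of the 48 fits that left out a mouse. High and low mice had medians of 539 and 490 TPM in monomer and 655 and 528 TPM in PFF mice at 21% O2, and of 471 and 557 TPM in monomer and 406 and 796 TPM in PFF mice at 11% O2. *Mobp*, a gene of myelin, differed by 0.05 (SE 0.054, adjusted p = 0.781). No gene of the 13 dopaminergic, 13 general neuron, 10 oligodendrocyte or 10 microglia markers had an unadjusted p under 0.05. Of the 13 dopaminergic markers 11 were negative with a median of -0.05, and all 13 were negative with a median of -0.13 in the 42 mice. With *Dnajb1* as a continuous term all 13 were positive with a median of 0.09, so the sign of this list depended on the fit. None of the 13 had an unadjusted p under 0.05 in these 2 fits.

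The difference between high and low mice was also compared among the 4 groups, which asks whether genes followed *Dnajb1* to the same extent under each injection and O2 level. No gene of 18157 passed an adjusted p of 0.05 in edgeR (0%), and 867 had an unadjusted p under 0.05, or 4.78% of those tested. The smallest p values were those of *Tmem109*, a membrane channel protein, of *Dennd2a*, an exchange factor for Rab proteins, and of *Xlr3a*, an X-linked imprinted-cluster gene with close paralogs, whose counts are therefore uncertain. *Tmem109* differed by -0.08 in monomer and 0.25 in PFF mice at 21% O2, and by 0.23 and -0.33 at 11% O2 (adjusted p = 0.165). *Dennd2a* had the same pattern, at -0.05, 0.29, 0.20 and -0.32 (adjusted p = 0.529).

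The split discards how far mice lay apart, so the level of *Dnajb1* was also entered as a continuous term, scaled to the mean difference between high and low mice. Then 69 genes were called, 0.38% of those tested, 8 higher and 61 lower with more *Dnajb1*. *Hspa1a* (0.58, adjusted p = 3.77e-06) and *Hspa1b* (0.76, adjusted p = 6.49e-05) were 2 of the 8, and *4632427E13Rik* (-0.31, adjusted p = 4.87e-05) was among the 61. *Cirbp* had an adjusted p of 0.00575 at a difference of -0.18 and so was not called. All 5 red cell genes and 2 forebrain excitatory neuron markers were called lower. The number fell to 10, with 5 higher and 5 lower, without the library with the fewest counts, and was 12 in the 42 mice, 7 higher and 5 lower, with *Hspa1a*, *Hspa1b* and *4632427E13Rik* called each time. These 2 smaller fits were chosen after seeing the data.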

How the data were processed

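RNA of the SN of 48 mice was sequenced. The authors aligned reads to mm10 with STAR 2.7.5a, removed duplicates with Picard 2.21.9, and counted them per GENCODE vM24 gene with featureCounts 2.0.1, without strand. They deposited these raw counts and the TPM computed from them for 55385 genes, and batch-corrected counts of 19601 protein-coding genes in 42 mice, which the authors obtained with ComBat-seq. TPM served to rank the mice and to give levels, and counts before correction were tested.

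Tests used edgeR 4.0.16 in R 4.3.3 with TMM normalization, filterByExpr by group and the quasi-likelihood test, with group, batch and the split as terms in 48 mice. *Dnajb1* was left out of every test and count of the split and tested only between groups. SE is the absolute log2 difference over the square root of F. Simulated data with known changes were used to check the fit. Differences among groups were tested as the equality of 4 coefficients.

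Named are *Dnajb1*, *Hspa1b*, *Cirbp*, *Rbm3*, *Th*, *Mobp*, called genes up to 6 in each direction by smallest p among those with 1 sign in all groups and batches and up to 3 by size, called members of lists, heat shock list members, and the 3 genes with the smallest p among groups. Others are marked as chosen after their values were seen. Members and lists were chosen with earlier results of these data known. The alternatives, including DESeq2 1.42.0 and limma 3.58.1 with 1 or 0.1 added to TPM before taking log2, are given at the end. Positions are from GENCODE vM21 on GRCm38, in which all 27 named genes were found by identifier. The deposited batch-corrected TPM, RT–qPCR and proteomics were not used here. Whether all replicates came from separate litters is not given in the sources used here, and each is a separate mouse.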

Additional observations from a re-analysis of the deposited data

Results flagged for a closer look

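Among the 104 sets of 6 mice whose values were examined (8 sets for each of 13 genes), 4 held a mouse that stood apart from the other 5 by Dixon's test. Chance alone flags about 1 in 20 groups. That rate does not hold for the 8 sets of *Dnajb1*, which were cut by its own level, so its flag is only a description. In the low PFF mice at 11% O2, replicate 2 had 52.8 TPM of *Dnajb1*, with the nearest mouse at 69.1. It is also the library with the fewest counts. In the low PFF mice at 21% O2, replicate 4 had 24.3 TPM of *Hspa1b*, with the nearest at 12.5. It was the only batch 1 mouse of that set. The high batch 1 mice of the group stood at 27.7, 43.3 and 95.5 TPM, and its batch 2 and 3 mice between 8.35 and 47.1. In the high monomer mice at 21% O2, replicate 2 had 9.04 TPM of *Slc35b3*, with the nearest at 7.79. In the high PFF mice at 11% O2, replicate 11 had 6.597 TPM of *Nemp2*, with the nearest at 5.97.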

How the results depend on the processing

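The number of called genes, 2 with the fit reported, was small and fragile. It was 7 by the adjusted p alone, 6 with DESeq2, 5 without a filter on low counts, 4 without the library with the fewest counts, 4 with the split made on log2 CPM of *Dnajb1*, 4 with library size as a covariate and 69 with *Dnajb1* as a continuous term, and, chosen after seeing the data, 12 and 10 with that term in 42 mice and without the library with the fewest counts. It was 2 with the 4 highest and lowest mice of each group, but these were *Slc35b3* and *Nemp2*, with *Hspa1a* (adjusted p = 0.0684) and *4632427E13Rik* (adjusted p = 0.0719) lost, and only 1 of the 5 genes without a filter, *Hspa1a*, was among the 2 reported. Both were called with DESeq2, without the library with the fewest counts, with the split on log2 CPM, with library size as a covariate and with each continuous term. The number was 1 with limma on log2(TPM + 0.1), and 0 with limma on log2(TPM + 1) at either filter, with no batch term, in the 42 mice with counts before or after correction, with the split made within group and batch, in batches 1, 2 or 3 alone and without any 1 of the 4 groups. Leaving out each mouse in turn, also chosen after seeing the data, gave from 0 to 4 called genes, and 0 for 34 of the 48 mice. In those 48 fits *Hspa1a* lost its call 39 times, at an adjusted p of up to 0.103, while its difference stayed between 0.51 and 0.62, and *4632427E13Rik* lost it 36 times at differences of -0.35 to -0.30. In the other 25 settings *Hspa1a* ranged from 0.28 to 0.97 and *Cirbp* from -0.26 to -0.10. *4632427E13Rik* ranged from -0.42 to -0.15 in its 24 settings.

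The methods describe mice matched between groups by weight, age, delivery date and sometimes cage, but replicate numbers are not stated to mark the matches. The median correlation of residuals was -0.0049 between mice of equal number in different groups and above 0.1 in 17 of 72 pairs. For unequal numbers in different groups it was -0.0038, and above 0.1 in 246 of 792 pairs. Mice of equal number can come from different batches, so this check could not show whether matched mice were alike. With the replicate block 0 genes were called, and 1401 had an unadjusted p under 0.05. No gene differed among groups in any of the 6 alternatives run for that test.

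The sign of *Th* turned to 0.044 with the split within group and batch, 0.10 with the 4 highest and lowest mice, 0.085 with the continuous term (0.019 in 42 mice, 0.061 without the library with the fewest counts), 0.12 with the replicate block, 0.45 in batch 1 and 0.030 with each limma fit, and leaving out single mice gave -0.11 to 0.029. *Mobp* turned to -0.000459 with the replicate block and -0.043 in batch 1, and *Ahsa1* to -0.0022 in batch 1. *Tmem109* turned to -0.11 in batch 2, -0.045 without monomer mice at 11% O2 and -0.047 without PFF mice at 21% O2, and *Dennd2a* to -0.064, -0.015 and -0.041 in the same settings. *Xlr3a*, at -0.04, turned to 0.031 with the 4 highest and lowest mice, 0.069 with the continuous term (0.067 in 42 mice, 0.075 without the library with the fewest counts), 0.076 with the replicate block, 0.22 and 0.33 in batches 1 and 2, 0.23 without monomer mice at 11% O2 and 0.065 without PFF mice at 11% O2, and single mice gave -0.082 to 0.0051. The causes were not tested.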
